A study of Arabidopsis thaliana with 24 samples.

Results

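The comparison described here sets Arabidopsis thaliana leaves of the line K>R 1-9 against leaves of the wild type (WT) after treatment with abscisic acid (ABA), a hormone that plants make under drought. Its members are the 6 libraries that the labels title K>R 1-9 with ABA and WT with ABA, 3 biological replicates each, out of 24 libraries in the series. K>R 1-9 plants express a copy of the H2A.Z gene HTA11 in which the 9 lysines of the amino-terminal tail are changed to arginine, in an h2a.z null background. Leaves of 3-week-old plants were painted for 4 h with 10 uM ABA and the wetting agent Silwet L-77 at 0.01%. Mock leaves of both genotypes, painted with DMSO in water and the same Silwet L-77, and ABA leaves of 2 further lines serve for comparison. In the same null background, Delta28 carries HTA11 without its first 28 residues and K>R 3 carries HTA11 with only the lysine at residue 13 changed. The labels describe no line in which the null background carries intact HTA11. A difference from WT therefore cannot be told apart into the altered tail, the missing endogenous genes and the transgene.

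H2A.Z is a variant of histone H2A that the SWR1 remodelling complex inserts into nucleosomes near the start of genes. The NuA4 complex acetylates lysines of its tail, and arginine keeps the positive charge but cannot be acetylated. In plants H2A.Z is known for its part in the control of environmentally responsive genes. ABA is bound by PYR/PYL receptors, which block clade A PP2C phosphatases and so release SnRK2 kinases to activate ABF transcription factors.

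The libraries count 3′ ends of polyadenylated RNA. The K>R 1-9 ABA libraries held 11219911, 10360230 and 5046788 counts and the WT ABA libraries 3193763, 10417106 and 15086279, and all 24 ranged from 1565518 to 15086279. The gene models behind the counts lack the exon of lowest coordinate, so genes on the minus strand lose the exon with their 3′ end, and their levels rest on few reads. Of the 14 genes called below, 13 lie on the plus strand, and an unadjusted p below 0.05 was reached by 14.2% of plus-strand genes and 7.73% of minus-strand genes. WT ABA replicate 3 stood apart from its group on the first principal component of log2 CPM (read counts scaled to library size), which held 30.1% of the variance. Its score was -2.33, against 31.4 and 44.2 in the other WT ABA libraries, while the K>R 1-9 ABA libraries scored 64.5, 53.5 and 67.8 and WT mock libraries -58.2, -71.7 and -64.3. Leaf identity was checked by markers: mesophyll markers summed to between 4320 and 5119 CPM in K>R 1-9 ABA leaves and between 3575 and 7869 CPM in WT ABA leaves. Of 3 root markers in the files, WER had 0 counts in these 6 libraries. The list summed to between 26.0 and 27.1 CPM in K>R 1-9 ABA leaves and between 22.8 and 25.6 CPM in WT ABA leaves, most of it from SCR, with means of 25.6 CPM in K>R 1-9 and 23.8 CPM in WT. In such bulk leaf samples, fewer cells of a type and less RNA per cell cannot be told apart.

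The H2A.Z genes check the genotype labels. HTA9, one of the endogenous H2A.Z genes, had 76.7, 78.1 and 82.8 CPM in K>R 1-9 ABA leaves, against 386, 344 and 355 CPM in WT ABA leaves. It was 4.57-fold lower, a log2 fold change of -2.19 with a standard error (SE) of 0.19 and an adjusted p of 1.27e-06 in edgeR's quasi-likelihood test. All fold changes here are K>R 1-9 over WT unless stated, and all adjusted p values are Benjamini-Hochberg values over the 13874 genes tested. HTA11, the gene that the line expresses in altered form, had 1008, 518 and 517 CPM in K>R 1-9 ABA leaves, against 4.71, 9.42 and 9.79 CPM in WT ABA leaves. The groups lay far apart, with a log2 fold change of 6.36 (SE 1.06, adjusted p = 0.0176). HTA8, another endogenous H2A.Z gene, had 0 counts in all 24 libraries. It lies on the minus strand, so its level could not be read here.

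The HTA11 entry read differently in the other altered lines. It had 8.57, 4.06 and 2.54 CPM in Delta28 ABA leaves and 20.1, 5.66 and 22.1 CPM in K>R 3 ABA leaves, with log2 fold changes over WT of -0.62 (SE 0.92) and 0.96 (SE 0.89). One K>R 3 mock library, replicate 2, had 788 CPM, against 10.9 and 36.0 CPM in the other K>R 3 mock libraries. That library stands apart from its group at this gene, within the range of the K>R 1-9 ABA libraries given above. Whether it is what its label says was not tested. It enters the shared estimate of spread and the choice of ABA-responsive genes below, but no mean of the comparison. HTA9 was low in all altered lines, with 81.1, 118 and 77.0 CPM in Delta28 ABA leaves and 62.5, 67.4 and 69.6 CPM in K>R 3 ABA leaves.

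Across all genes the comparison called 14, which is 0.101% of those tested, 3 of them higher (0.0216%) and 11 lower (0.0793%) in K>R 1-9. The median log2 fold change over all genes was -0.02 and the median size 0.34, below the median SE of 0.41. An unadjusted p below 0.05 was reached by 1588 genes (11.4%), 704 higher (5.07%) and 884 lower (6.37%). DESeq2 on the same counts called 194 genes (1.4%), 75 higher (0.541%) and 119 lower (0.858%), among them 13 of the 14; for HTA11 it returned no adjusted p. The number of calls rested on single libraries: it was 2 without WT ABA replicate 1, 1 without WT ABA replicate 3, 1 without K>R 1-9 ABA replicate 1 and 1 without K>R 1-9 ABA replicate 3. It was 14 without WT ABA replicate 2 and 17 without K>R 1-9 ABA replicate 2. HTA9 was called in each of these 6 leave-outs. Each of the other 13 lost its call in at least 3 of them, with the same sign of the fold change throughout.

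**Figure D1:**
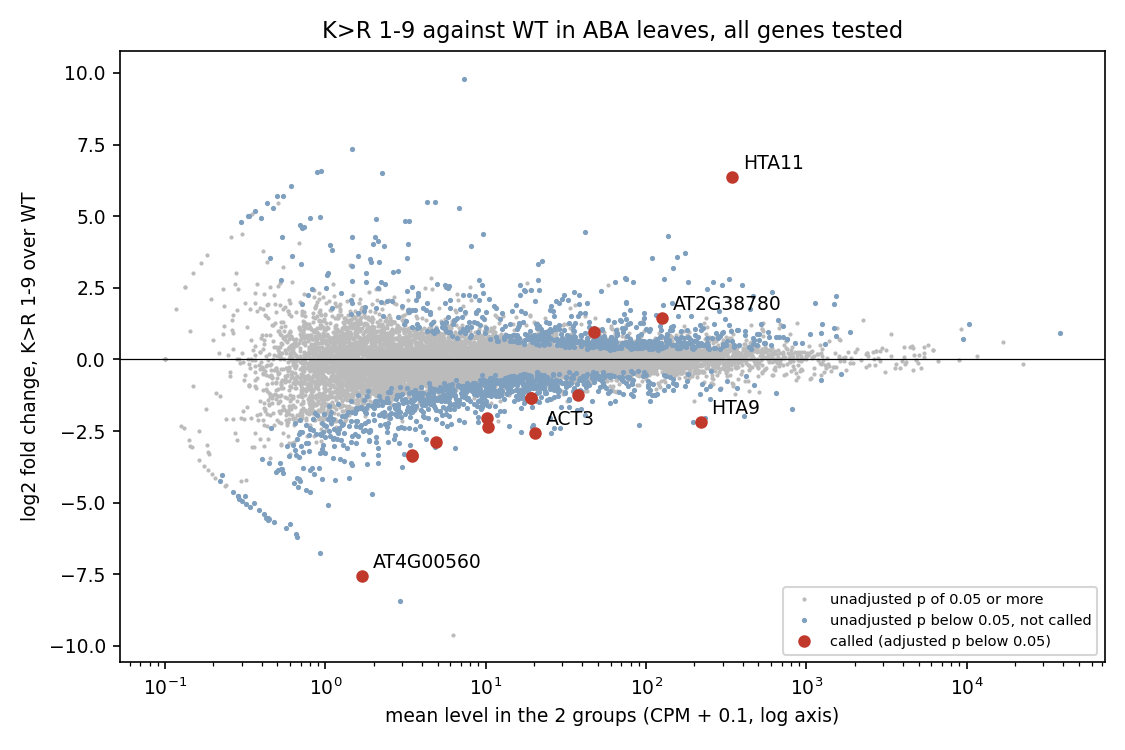
Log2 fold change of K>R 1-9 over WT in ABA leaves (y axis) against the mean level of the 2 groups in CPM plus 0.1 (x axis, log scale) for the 13874 genes tested, each from 3 libraries per group. Red points are the 14 genes called, blue points the other genes with an unadjusted p below 0.05; HTA11 and HTA9 stand out at high levels, and fitted values at the far left belong to genes with few or no counts in 1 group and depend on the prior count.

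The called genes other than HTA9 and HTA11 are described by their roles, beginning with chromatin and DNA. FDM4, of a family that acts in RNA-directed DNA methylation, had 0.589, 0.597 and 0.671 CPM in K>R 1-9 ABA leaves, against 3.45, 4.53 and 10.4 CPM in WT ABA leaves. It was 10.1-fold lower (log2 fold change -3.33, SE 0.53, adjusted p = 0.0121), from 15 counts in total over the K>R 1-9 libraries. XRCC4, the partner of DNA ligase IV in the joining of broken DNA ends, had 3.34, 5.87 and 2.46 CPM in K>R 1-9, against 11.0, 15.9 and 22.1 CPM in WT. Its log2 fold change was -2.05 (SE 0.40, adjusted p = 0.0461), and the groups did not overlap.

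Among genes of the cytoskeleton, membranes and metabolism, ACT3, an actin gene of the reproductive class, had 5.60, 6.47 and 5.14 CPM in K>R 1-9, against 43.3, 18.5 and 42.1 CPM in WT. It fell by 2.57 on the log2 scale (SE 0.41, adjusted p = 0.0121), while the commonly used reference actins ACT2 and ACT8 had log2 fold changes of 0.02 and 0.04. MK, which encodes the mevalonate kinase of isoprenoid synthesis, had 2.95, 1.89 and 5.59 CPM in K>R 1-9, against 11.9, 18.0 and 20.6 CPM in WT. It fell by 2.34 (SE 0.45, adjusted p = 0.0461). HVA22H belongs to a family named after an ABA-induced barley gene. It had 0.589, 0.995 and 0 CPM in K>R 1-9, against 4.39, 6.52 and 7.83 CPM in WT, a log2 fold change of -3.37 (SE 0.66, adjusted p = 0.0485).

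Several called genes have no assigned symbol. AT1G26750, an uncharacterised protein, had 27.6, 22.8 and 17.0 CPM in K>R 1-9, against 48.9, 51.3 and 58.2 CPM in WT (log2 fold change -1.23, SE 0.21, adjusted p = 0.0185). AT1G05210, annotated as a transmembrane protein, had 1.28, 1.69 and 0.224 CPM in K>R 1-9, against 7.84, 4.07 and 13.8 CPM in WT (log2 fold change -2.88, SE 0.57, adjusted p = 0.0485). AT4G09200 and AT4G09310, annotated as SPRY domain proteins, had the same counts in every library. They are near-identical copies to the counting step, so they amount to a single measurement of uncertain source: 9.53, 11.7 and 11.2 CPM in K>R 1-9, against 28.2, 24.4 and 29.2 CPM in WT, a log2 fold change of -1.33 (SE 0.23, adjusted p = 0.0185). The naming rule asks for a mean of at least 5 CPM in the higher group, and AT4G00560, annotated as an NAD(P)-binding protein, misses it and is named because it completes the count. It had 0 counts in the K>R 1-9 ABA libraries together, against 65 in the WT ABA libraries (19, 26 and 20). With the WT libraries pooled and a floor of 3 counts set over the K>R 1-9 group, it was at least 17.8-fold lower. That bound leaves out the spread between WT libraries. The call was lost in all 6 leave-outs, as were those of HVA22H, MK and AT2G13290.

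Higher in K>R 1-9 besides HTA11 were AT2G38780 and AT2G13290. AT2G38780, annotated as a cytochrome c oxidase subunit, had 240, 170 and 142 CPM in K>R 1-9, against 56.5, 74.3 and 72.4 CPM in WT (log2 fold change 1.44, SE 0.27, adjusted p = 0.0461). AT2G13290, an N-acetylglucosaminyltransferase family member, had 64.9, 59.0 and 63.5 CPM in K>R 1-9, against 34.2, 28.4 and 34.2 CPM in WT (log2 fold change 0.95, SE 0.19, adjusted p = 0.0461). In both, each K>R 1-9 library lay above each WT library. The groups did not overlap in any of the 14 called genes, as in 19.8% of all genes tested.

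**Figure D2:**
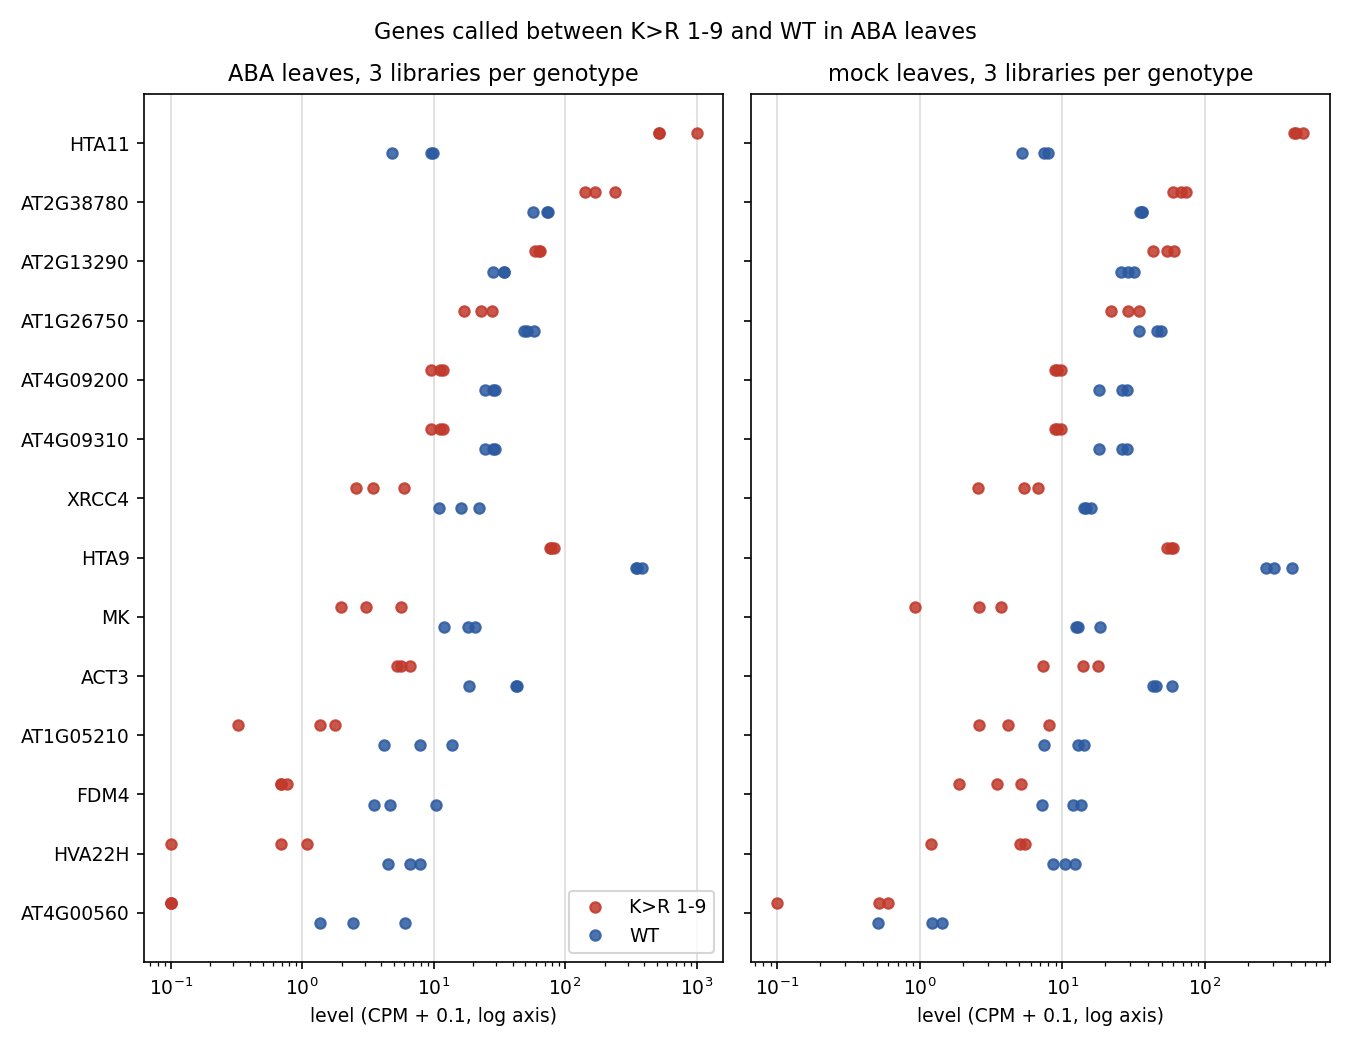
Level of the 14 genes called in ABA leaves, in CPM plus 0.1 on a log axis, in ABA leaves (left) and mock leaves (right); each point is 1 library, with K>R 1-9 (red) above WT (blue) in each row. In ABA leaves no gene's groups overlap, HTA9 lies between 76.7 and 82.8 CPM in K>R 1-9 and between 344 and 386 CPM in WT, and the genes near the bottom sit at a few CPM or at 0.

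The position of called genes relative to HTA8, HTA9 and HTA11 was looked up by gene order in the TAIR10.1 annotation. AT2G38780 lies close to HTA8, with 2 protein-coding genes between them. Around HTA8, 8 of the 10 nearest protein-coding genes were tested. Besides AT2G38780, ANNAT3, which encodes an annexin, had means of 55.1 CPM in K>R 1-9 and 19.4 CPM in WT (log2 fold change 1.51, SE 0.60, unadjusted p = 0.0194). AT2G38800 had 34.5 CPM in K>R 1-9 and 23.2 CPM in WT (0.56, SE 0.27, unadjusted p = 0.0491), and neither passed the adjusted threshold. The others had an unadjusted p above 0.05: AT2G38820 and AT2G38840 were at 0.08 and 0.48, and EMB2765, AT2G38823 and YLS5 at -0.75, -2.15 and -0.82. Around HTA9, no neighbour tested had an unadjusted p below 0.05. Around HTA11, only DJ1F did, and it was lower (-0.87, SE 0.31, unadjusted p = 0.0105). Of all genes tested, 11.4% did. ACT3 lies 81 protein-coding genes from HTA11. The other called genes that share a chromosome with HTA8, HTA9 or HTA11 have at least 1685 genes between; distances to HTA4, a further H2A.Z gene, were not looked up. Whether linked sequence from the mutant parents moves with these values was not tested.

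The same genotypes were compared in mock leaves, which share no library with the ABA comparison. There 34 genes were called (0.245%), 19 higher (0.137%) and 15 lower (0.108%). Both comparisons called 6 genes, which is 42.9% of the ABA calls and 17.6% of the mock calls: HTA9, HTA11, ACT3, MK, AT4G09200 and AT4G09310. AT4G09200 and AT4G09310 amount to a single measurement but are counted separately in these numbers and in the 14. All 14 genes called in ABA leaves had the same sign in mock leaves, where 66.7% of all genes tested had the same sign in both. Of the 8 not called in mock leaves, 7 had an unadjusted p below 0.05 there, as did 14.4% of all genes. All 34 genes called in mock leaves had the same sign in ABA leaves.

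Of the 34 mock calls, 28 did not pass in ABA leaves, of which 22 had an unadjusted p below 0.05 there. BGLU11, which encodes a beta-glucosidase, was at 1.55 on the log2 scale (SE 0.40, adjusted p = 0.121) in ABA leaves and at 2.36 (SE 0.42, adjusted p = 0.0154) in mock leaves. SAG13, a gene of leaf senescence, had 1804, 301 and 958 CPM in K>R 1-9 ABA leaves, against 221, 277 and 97.1 CPM in WT ABA leaves. Its log2 fold change was 2.37 (SE 0.64, adjusted p = 0.142) in ABA leaves and 3.21 (SE 0.68, adjusted p = 0.0470) in mock leaves. MOD1, an enoyl reductase of fatty acid synthesis, had -1.44 (SE 0.32, adjusted p = 0.0916) in ABA leaves and -2.01 (SE 0.32, adjusted p = 0.0154) in mock leaves.

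The difference of the genotype effect between ABA and mock leaves was tested directly as an interaction. It called 0 genes (0%) in edgeR, 456 had an unadjusted p below 0.05 (3.29%), and DESeq2 also called 0. For HTA9 the difference was 0.33 (SE 0.26, unadjusted p = 0.213) and for ACT3 -0.66 (SE 0.55, unadjusted p = 0.239). For FDM4 it was -1.68 (SE 0.69, unadjusted p = 0.0237), and for HVA22H -1.91 (SE 0.87, unadjusted p = 0.0380). The mock count of 34 also rested on single libraries: it was 1 without WT mock replicate 3, 8 without WT mock replicate 2, 17 without WT mock replicate 1, 10 without K>R 1-9 mock replicate 1, 42 without K>R 1-9 mock replicate 2 and 11 without K>R 1-9 mock replicate 3.

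**Figure D3:**
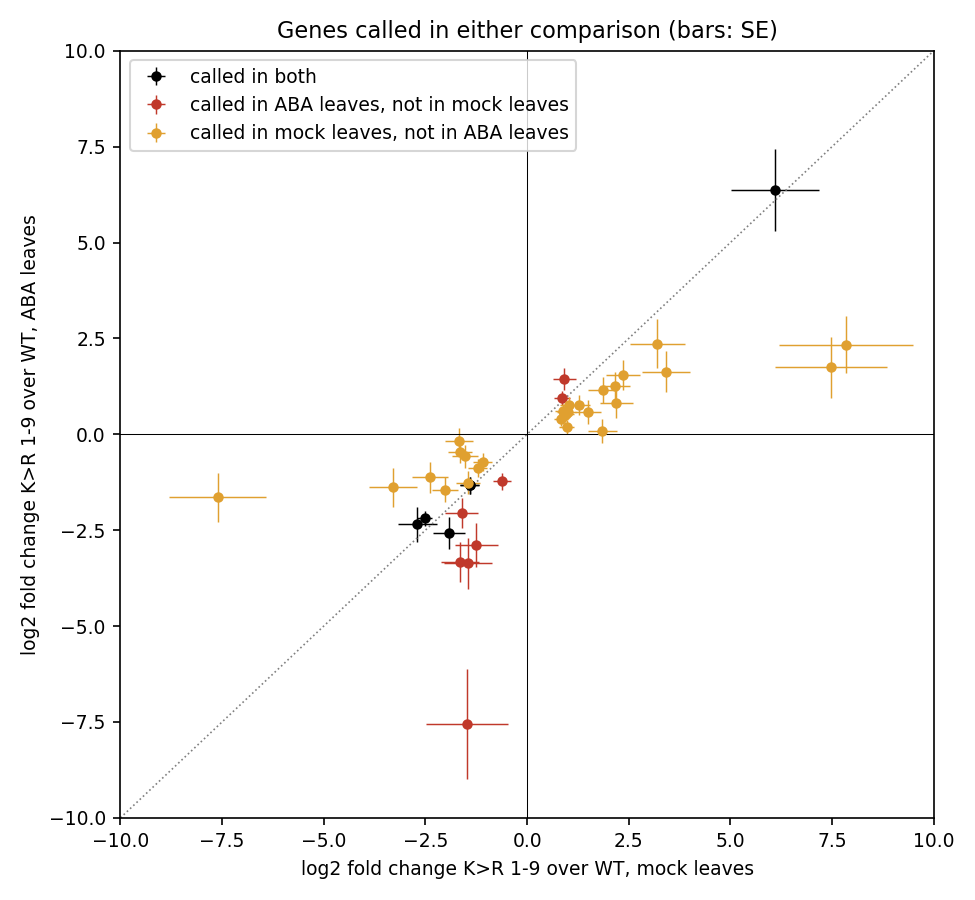
Log2 fold change of K>R 1-9 over WT in mock leaves (x axis) and in ABA leaves (y axis), with SE bars, for the genes called in either comparison; the dotted line marks equal values. All points lie at lower left or upper right of the origin; points beyond 7 in size have a group with few or no counts, and their fitted values depend on the prior count.

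K>R 1-9 was compared with the other altered lines in ABA leaves. It differs from them in the HTA11 reading given above as well as in the tail. Tail and HTA11 level therefore cannot be told apart in these tests. Against Delta28, K>R 1-9 differed in 1 gene (0.00721%), HTA11, with a log2 fold change of 6.98 (SE 1.10, adjusted p = 0.0309), and 1402 genes had an unadjusted p below 0.05 (10.1%). That call was lost without any 1 of the Delta28 ABA libraries and without K>R 1-9 ABA replicate 1, where the count was 0, and the count was 2 without K>R 1-9 ABA replicate 2. Against K>R 3, edgeR called 0 genes (0%), 883 had an unadjusted p below 0.05 (6.36%) and DESeq2 called 17. Without K>R 3 ABA replicate 3, edgeR called 26. HTA11 against K>R 3 had a log2 fold change of 5.40 (SE 1.01, adjusted p = 0.109).

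Each altered line was also set against the same WT ABA libraries, so these values share their controls and are given side by side only. HTA9 had a log2 fold change of -2.19 in K>R 1-9, -1.97 (SE 0.19) in Delta28 and -2.44 (SE 0.19) in K>R 3. ACT3 had -2.57 in K>R 1-9, -1.25 (SE 0.39) in Delta28 and -0.40 (SE 0.38) in K>R 3, and the direct difference from K>R 3 was -2.17 (SE 0.41, adjusted p = 0.109). AT1G26750 had -1.23 in K>R 1-9, -1.11 (SE 0.21, adjusted p = 0.0393) in Delta28 and -0.39 (SE 0.21) in K>R 3. In all, 14 genes were called in K>R 1-9, 16 in Delta28 (0.115%) and 1 in K>R 3 (0.00721%). For these genes the direct tests between lines, HTA11 against Delta28 apart, did not pass.

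Genes that respond to ABA were taken from Delta28 and K>R 3 alone, so that no library of the comparison chose them. At least a 2-fold change at an adjusted p below 0.05 between their ABA and mock leaves marked 1101 genes as induced and 1044 as repressed. The induced genes had a median log2 fold change of 0.34 in K>R 1-9 ABA leaves over WT, against -0.02 for all genes, and 73.7% were positive, against 48.6% of all genes. Only AT2G38780 of them was called, and 159 had an unadjusted p below 0.05 on the higher side and 16 on the lower, where 5.07% and 6.37% of all genes did. The repressed genes had a median of -0.58, and 86.0% were negative, against 51.4% of all genes. AT1G05210, FDM4 and HVA22H of them were called lower, and HTA11 was called higher. HTA11 counts as repressed through the K>R 3 mock library described above. Over the same WT ABA libraries, the induced genes had medians of 0.43 in Delta28 and 0.27 in K>R 3. The repressed genes had medians of -0.35 in Delta28 and -0.52 in K>R 3. Those lines chose the sets and share the WT libraries, so these values are given side by side only. In mock leaves the K>R 1-9 medians were 0.35 for the induced and -0.43 for the repressed genes, on the same sides of 0. The median interaction was -0.07 for the induced and -0.18 for the repressed genes, against -0.04 for all genes.

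By library, the induced genes averaged 4.89, 4.72 and 4.78 log2 CPM in K>R 1-9 ABA leaves, against 4.46, 4.74 and 4.00 in WT ABA leaves. The groups overlapped, with WT ABA replicate 2 inside the K>R 1-9 range. The repressed genes averaged 2.66, 2.71 and 2.58 log2 CPM in K>R 1-9 ABA leaves, against 3.16, 2.93 and 3.63 in WT ABA leaves, without overlap. In mock leaves the genotypes overlapped in neither set. There the induced genes averaged 3.60, 3.13 and 3.05 in K>R 1-9, against 2.92, 2.83 and 2.95 in WT. The repressed genes averaged 3.63, 3.91 and 3.77 in K>R 1-9 mock leaves, against 4.06, 4.17 and 4.43 in WT mock leaves. WT ABA replicate 3 was nearest to the mock leaves in both sets. Without it the medians were 0.19 and -0.35; without WT ABA replicate 2 they were 0.54 and -0.77.

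**Figure D4:**
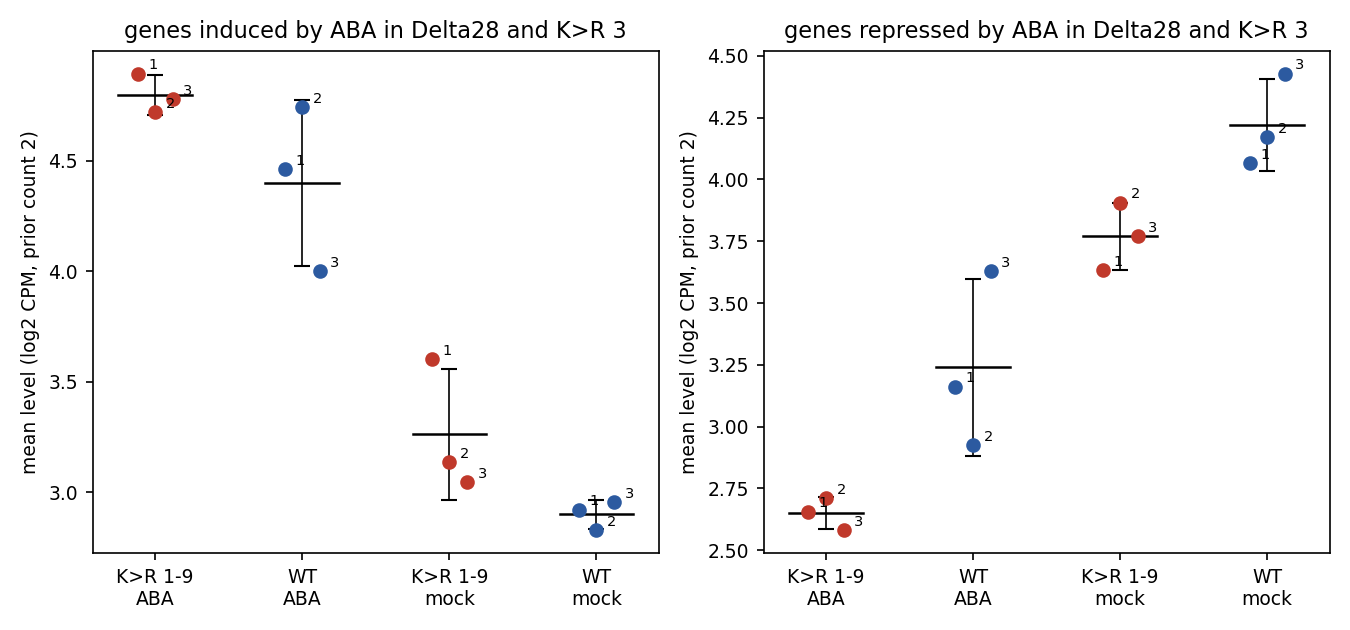
Mean log2 CPM per library over the 1101 genes induced (left) and the 1044 genes repressed (right) by ABA in Delta28 and K>R 3, in K>R 1-9 and WT leaves with ABA or mock treatment; points are libraries with their replicate number, bars the mean and SD of 3. K>R 1-9 ABA libraries lie between 4.72 and 4.89 (left) and between 2.58 and 2.71 (right), and WT ABA libraries spread from 4.00 to 4.74 and from 2.93 to 3.63.

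The chromatin machinery around H2A.Z was examined as gene lists. Among the tested members of each list, counts of unadjusted p below 0.05 are read against 11.4% of all genes. Of 14 SWR1 and INO80 subunits tested, 0 passed the adjusted threshold and the median log2 fold change was 0.10. ARP6, an actin-related subunit that SWR1 needs to deposit H2A.Z, had means of 5.21 CPM in K>R 1-9 and 2.29 CPM in WT (log2 fold change 1.13, SE 0.46, adjusted p = 0.340) on the minus strand. PIE1, the ATPase of SWR1, had -0.31 (SE 0.22). Of 9 NuA4 subunits tested, 0 passed, with a median of -0.04. The 7 canonical and other H2A genes tested had a median of -0.13, and none passed. Leave-outs of single libraries moved these medians between -0.01 and 0.19 for SWR1 and INO80, between -0.26 and 0.12 for NuA4 and between -0.28 and 0.12 for the other H2A genes.

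In the core of ABA signalling 0 genes were called, where 0.101% of all genes were. The 9 clade A PP2C phosphatases, negative regulators that ABA itself induces, had a median of -0.03, from -0.43 for HAB1 to 0.52 for AHG1. The sign of that median rested on single libraries: it was 0.67 without WT ABA replicate 2, 0.30 without K>R 1-9 ABA replicate 3 and -0.47 without WT ABA replicate 3. ABI2, one of them, had 253, 245 and 107 CPM in K>R 1-9, against 231, 332 and 75.2 CPM in WT. The 4 ABA receptors tested of 14 had log2 fold changes from -0.25 to -0.01. Of 8 SnRK2 kinases tested, OST1, the kinase of stomatal closure, had 48.9, 49.4 and 51.2 CPM in K>R 1-9, against 37.3, 33.5 and 15.6 CPM in WT (0.80, SE 0.32, adjusted p = 0.325). The 9 ABF, ABI and AFP regulators had a median of -0.00, which was -0.28 without WT ABA replicate 3 and 0.18 without K>R 1-9 ABA replicate 3.

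Genes downstream of ABA spread widely between replicates. The 21 LEA, dehydrin and ABA marker genes had a median of 0.49, with 14 positive and 7 negative, and 0 called; without K>R 1-9 ABA replicate 2 the median was 0.04. AT3G02480, a LEA family gene, had 1963, 2090 and 1378 CPM in K>R 1-9, against 346, 681 and 348 CPM in WT, without overlap (log2 fold change 1.98, SE 0.95, adjusted p = 0.433). RAB18, a dehydrin, had 69.0, 221 and 24.6 CPM in K>R 1-9, against 31.4, 84.0 and 20.6 CPM in WT, and the groups overlapped. The cold and ABA reporter RD29A was at -0.36 (SE 0.54). The 14 osmolyte and sugar genes had a median of 0.55, with 11 positive. It was 1.01 without WT ABA replicate 2, 0.36 without WT ABA replicate 3 and 0.32 without K>R 1-9 ABA replicate 2. BGLU18, which frees ABA from its stored glucose ester, had 1465, 695 and 5414 CPM in K>R 1-9, against 358, 1043 and 248 CPM in WT, and the groups overlapped (adjusted p = 0.302).

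The lists were chosen with earlier results of these data known. Among those with at least 3 genes tested, jasmonate genes had the highest median, 1.12, against -0.02 over all genes. Of 22 tested, 21 were positive and 10 had an unadjusted p below 0.05, all higher, and 0 passed the adjusted threshold. LOX4, a lipoxygenase of the pathway's first step, had 602, 121 and 804 CPM in K>R 1-9, against 104, 32.2 and 118 CPM in WT. Each K>R 1-9 library was above each WT library, with a log2 fold change of 2.59 (SE 0.69, adjusted p = 0.138), and DESeq2 called it (adjusted p = 0.0106). VSP1, a leaf storage protein gene that jasmonate induces, had 84.1, 71.0 and 709 CPM in K>R 1-9, against 11.3, 55.6 and 4.23 CPM in WT (3.58, SE 1.32, adjusted p = 0.290). JAZ5, one of the JAZ repressors that jasmonate itself induces, had 28.7, 7.56 and 60.4 CPM in K>R 1-9, against 6.59, 4.35 and 7.01 CPM in WT (2.42, SE 0.84, adjusted p = 0.261).

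The jasmonate values were uneven within K>R 1-9. The list's mean was 7.38, 6.14 and 8.13 log2 CPM in K>R 1-9 ABA leaves, against 6.31, 5.96 and 5.76 in WT ABA leaves, with replicate 2 of K>R 1-9 inside the WT range. Without K>R 1-9 ABA replicate 3, the highest, the list median was 0.57. In mock leaves it was 1.45. Over the same WT ABA libraries it was 0.82 in K>R 3 and -0.24 in Delta28. The list's mean was 6.69, 6.75 and 7.39 log2 CPM in K>R 3 ABA leaves and 5.61, 5.92 and 5.86 in Delta28 ABA leaves. JAR1, which joins jasmonate to isoleucine, was the only negative member (-0.50, SE 0.36).

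Glucosinolate synthesis had the lowest median of those lists, -1.01, and leave-outs of single libraries kept it between -1.01 and -0.85. Of 15 genes tested, 13 were negative, 6 had an unadjusted p below 0.05 on the lower side and 1 on the higher, and 0 passed. CYP83A1, an oxidase of aliphatic glucosinolate synthesis, had 17.0, 10.4 and 17.4 CPM in K>R 1-9, against 30.7, 32.9 and 31.5 CPM in WT (log2 fold change -1.09, SE 0.35, adjusted p = 0.220). MYB29, a transcription factor of that branch, had 13.0, 17.2 and 25.3 CPM in K>R 1-9, against 41.1, 42.0 and 31.7 CPM in WT (-1.06, SE 0.39, adjusted p = 0.288). MAM1, which elongates the methionine chain, had 277, 212 and 243 CPM in K>R 1-9, against 533, 306 and 629 CPM in WT (-1.01, SE 0.38, adjusted p = 0.303). MYB34, a factor of the indole branch, had a log2 fold change of 1.26 (SE 0.55, adjusted p = 0.378). In mock leaves the list median was -0.53. Over the same WT ABA libraries it was -0.63 in Delta28 and -0.01 in K>R 3.

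Other lists held single genes of large fitted change. The 20 salicylate and immune genes had a median of 0.07, with 10 positive and 10 negative, and leave-outs moved it between -0.31 and 0.27. PR5, a defence gene, had 388, 218 and 74.5 CPM in K>R 1-9, against 43.0, 18.0 and 36.3 CPM in WT (2.82, SE 0.94, adjusted p = 0.240). WRKY54, a WRKY factor of salicylate signalling, had 0.982, 1.59 and 0 CPM in K>R 1-9, against 4.39, 2.99 and 7.20 CPM in WT (-2.36, SE 0.99, adjusted p = 0.363). The 14 flowering genes tested had a median of -0.07, with 7 positive and 7 negative, and leave-outs moved it between -0.15 and 0.15. FUL (AGL8), a MADS-box gene of flowering and fruit, had 6.09, 3.68 and 1.57 CPM in K>R 1-9, against 0.314, 0.634 and 0.126 CPM in WT (3.38, SE 0.75, adjusted p = 0.0916; DESeq2 0.00439). MAF4, a flowering repressor of the FLC clade, had 0.0982, 0 and 0 CPM in K>R 1-9, against 0.941, 4.16 and 0.379 CPM in WT (adjusted p = 0.255), so its fitted change rests on few counts. The 18 phenylpropanoid and flavonoid genes tested had a median of 0.50, with 14 positive and 4 negative. Leave-outs moved it between 0.24 and 0.88, and in mock leaves it was -0.38. Over the same WT ABA libraries it was 0.92 in Delta28 and 0.78 in K>R 3. LDOX, of anthocyanin synthesis, had 0.295, 1.19 and 6.71 CPM in K>R 1-9 and 0 counts in the WT ABA libraries. DESeq2 called it (adjusted p = 0.0184) and edgeR did not.

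Cell type markers were read in the same way, since their levels can move with any list. Guard cell markers were negative in 5 of 5 tested, with a median of -0.71, and none was called. FAMA, the factor of guard cell identity, had 1.47, 1.09 and 1.57 CPM in K>R 1-9, against 3.14, 2.99 and 6.25 CPM in WT (-1.62, SE 0.52, adjusted p = 0.218). Their summed level was 159 to 321 CPM in K>R 1-9 and 234 to 429 CPM in WT, and MYB60 was at 0 in all 6 libraries. The median was -0.42 without K>R 1-9 ABA replicate 2, -1.19 without K>R 1-9 ABA replicate 3 and -1.07 without WT ABA replicate 3, and in mock leaves it was 0.42. Dividing cell markers were negative in 3 of 3 tested, with a median of -0.90, and summed without overlap to 3.24 to 6.71 CPM in K>R 1-9 and 7.42 to 16.5 CPM in WT. PCNA1, the sliding clamp of DNA replication, had means of 3.62 CPM in K>R 1-9 and 7.96 CPM in WT (-1.20, SE 0.48, adjusted p = 0.335), and CYCB1;1 and CDKB2;1 were at 0. That median was -0.50 without K>R 1-9 ABA replicate 1, and in mock leaves it was 0.47. Over the same WT ABA libraries it was -1.22 in Delta28 and -2.48 in K>R 3. Epidermis markers were negative in 4 of 4 tested, with a median of -0.24 that lay at -0.05 without WT ABA replicate 2, at -0.48 without WT ABA replicate 3 and at -0.50 without K>R 1-9 ABA replicate 2. Their sums overlapped, at 162 to 281 CPM in K>R 1-9 and 213 to 280 CPM in WT, and PDF1 was at 0. In mock leaves the 4 tested summed to 149, 196 and 207 CPM in K>R 1-9, against 262, 249 and 262 CPM in WT, without overlap. The 5 mesophyll markers had a median of -0.30 and the 7 vascular markers 0.19. Trichome markers were positive in 4 of 4 tested, from 0.20 to 6.53, with a median of 0.58, and GL1 was at 0. Among them 1 had an unadjusted p below 0.05, and DESeq2 called 1 and edgeR 0. They summed to 171 to 190 CPM in K>R 1-9 and 124 to 174 CPM in WT, so the member at 6.53 held little of the WT sum. Leave-outs moved the median between 0.29 and 0.72, and in mock leaves it was 0.46. The part of such markers in the jasmonate, glucosinolate and ABA gene values was not tested. Photosystem and antenna genes had a median of -0.18 over 27 tested and Rubisco and Calvin cycle genes -0.26 over 15, with 0 called in each. The 11 commonly used reference genes had a median of 0.01.

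**Figure D5:**
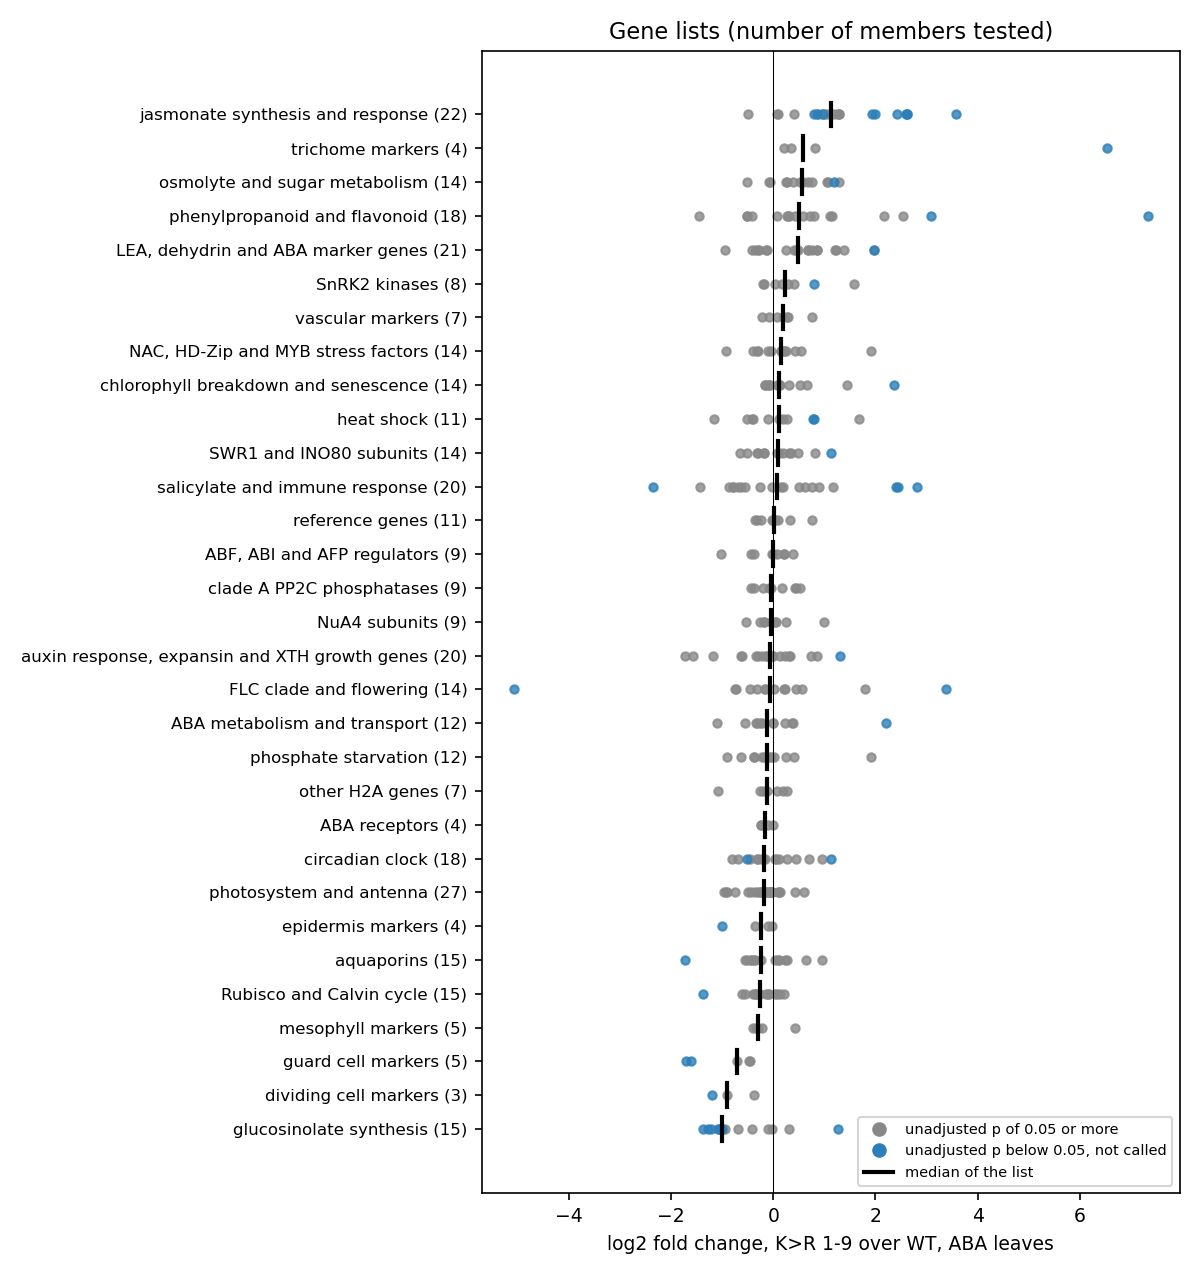
Log2 fold change of K>R 1-9 over WT in ABA leaves for each tested member of the gene lists with at least 3 members tested, ordered by the list median (black bar); grey points have an unadjusted p of 0.05 or more and blue points a smaller one, and none of the members shown was called. Jasmonate genes lie furthest to the right, with a median of 1.12, and glucosinolate genes furthest to the left, with a median of -1.01.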

How the data were processed

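RNA of about 100 mg of leaf was purified per replicate, and 500 ng entered the Lexogen QuantSeq FWD 3′ kit, per the labels' protocols. Trim Galore, STAR and RSEM were used, per the submitters' processing notes; the build, annotation and versions were not stated there. The authors deposited RSEM expected counts per gene without normalisation, per the file headers. Rounded counts were fitted with edgeR 4.0.16 under R 4.3.3. filterByExpr kept 13874 of 22279 genes and at least 99.9% of each library's counts. TMM scaling (factors 0.886 to 1.135) and a quasi-likelihood fit with a mean per group over all 24 libraries gave 16 residual degrees of freedom and a biological coefficient of variation of 0.364. DESeq2 1.42.0 was an alternative. CPM are scaled by effective library size; log2 CPM used a prior count of 2. Floors cover counting error only.

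Transcript lengths equalled those of the TAIR10.1 transcript without its exon of lowest coordinate in 11593 of 11674 genes with 1 transcript (99.3%). None of 5199 single-exon protein-coding genes had an entry, so these were not analysed here. Minus-strand genes held 12.6% to 17.6% of the counts. Without a named build, coordinates and sequences were left out.

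Genes were called at an adjusted p below 0.05. Named genes were the up to 12 largest changes in each direction among called genes whose groups did not overlap and whose higher mean reached 5 CPM, called list members and the H2A.Z genes; list members were named as examples after their values were seen. Members, lists and tests were chosen with earlier results of these data known, and a few list identifiers were corrected after the files were read. Alternatives were RLE scaling, other count filters, the replicate block, plus-strand genes, other sets of libraries and DESeq2. The fit was tested on simulated data.

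Libraries with the same replicate number did not deviate together: the correlations across genes of their deviations from the group means were 0.09, 0.06 and -0.10, so no pairing was used.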

Additional observations from a re-analysis of the deposited data

How the results depend on the processing

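HTA9 kept its call in all 6 leave-outs and all 8 other settings. Gene counts for K>R 1-9 against WT in ABA leaves (14, 3 higher and 11 lower) were 12 with RLE scaling, 12 without the count filter and 17 with a filter of 10 CPM in 3 libraries. They were 194 with DESeq2 (75 higher, 119 lower), 3 in a fit on these 6 libraries alone (1 lower) and 21 among plus-strand genes alone, where fewer genes were tested (18 lower). Leaving out both the second WT mock library and the second K>R 3 mock library, the count was 7 (1 higher, 6 lower). With the replicate block it was 8 (6 lower); the replicate numbers did not pair the libraries. The share of calls that were higher was 21.4% and became 66.7% in the fit on 6 libraries and 38.7% with DESeq2. The cause of these changes was not tested. Single-library leave-outs gave 1 to 17 calls, 0 to 4 higher and 1 to 13 lower.

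In mock leaves the 34 calls became 7 without those mock libraries, 10 in a fit on the groups compared alone and 355 with DESeq2; leave-outs gave 1 to 42. Against Delta28 the count of 1 became 0 with the replicate block, 2 in a fit on the groups compared alone and 75 with DESeq2, with 0 to 2 in leave-outs. Against K>R 3 the count of 0 became 1 without the mock libraries and 17 with DESeq2, with 0 to 26 in leave-outs. The interaction stayed at 0 throughout. Medians of the ABA-induced and ABA-repressed genes kept their signs, at 0.19 to 0.54 and -0.77 to -0.35 in leave-outs. Depth limits genes at a few CPM: 3 counts amount to 0.671 CPM in K>R 1-9 ABA replicate 3 and 0.941 CPM in WT ABA replicate 1.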

Other observations

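A further 31 genes had an edgeR adjusted p from 0.05 to 0.1 in ABA leaves, 4 higher and 27 lower in K>R 1-9, and DESeq2 called all 31. They were picked after their values were seen, missed the threshold, and carry no test of their own. The genes named here are examples and stand for no group. Cpn60beta2, a plastid chaperonin subunit, had 9.53, 9.15 and 8.95 CPM in K>R 1-9 ABA leaves, against 38.9, 32.4 and 74.1 CPM in WT ABA leaves (log2 fold change -2.40, SE 0.56). MOD1, of plastid fatty acid synthesis, had 20.9, 22.0 and 31.1 CPM in K>R 1-9, against 70.9, 41.6 and 87.6 CPM in WT. PRIN2, a regulator of plastid gene expression, had 18.6, 30.1 and 21.5 CPM in K>R 1-9, against 49.9, 37.5 and 63.7 CPM in WT. TOC34, a receptor of protein import, had 1.28, 0.398 and 0.895 CPM in K>R 1-9, against 1.88, 2.53 and 7.20 CPM in WT.

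KAO2, an oxidase of gibberellin synthesis, had 3.04, 2.69 and 1.79 CPM in K>R 1-9 ABA leaves, against 10.7, 7.06 and 15.2 CPM in WT ABA leaves (log2 fold change -2.10, SE 0.43, edgeR adjusted p = 0.0539). HIPP22, a metal-binding protein gene, had 299, 438 and 59.9 CPM in K>R 1-9, against 10.0, 56.7 and 19.6 CPM in WT (3.18, SE 0.71). In mock leaves it had 0.553, 0 and 1.51 CPM in K>R 1-9 and 0 counts in the WT libraries. MES5, a methyl esterase gene, had 127, 75.0 and 155 CPM in K>R 1-9, against 31.7, 43.7 and 13.9 CPM in WT (2.00, SE 0.44), and 48.0, 27.4 and 29.4 CPM in K>R 1-9 mock leaves, against 5.10, 11.3 and 8.20 CPM in WT mock leaves.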
